A study of Mus musculus with 9 samples.

Results

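Loss of the remaining Bcl11a allele was examined by comparing hematopoietic stem cells (HSCs) of mice that had lost both alleles with HSCs of mice that had lost 1. The comparison used 6 of the study's 9 arrays, 3 from homozygously deleted mice (KO; Bcl11a fl/fl with Mx1-Cre) and 3 from heterozygously deleted mice (Het; Bcl11a fl/wt with Mx1-Cre), chosen by their genotype labels. The other 3 arrays came from non-deleted mice (WT; Bcl11a fl/fl without Mx1-Cre) and are used where the step from WT to Het is set beside the step from Het to KO. All animals were 6 to 8 months old and had been injected with poly(I:C), an inducer of interferon, in 5 doses. KO and Het cells therefore share Mx1-Cre, interferon induction and deletion of 1 allele, and differ in the second allele. WT cells differ from both in lacking Cre. Cells were enriched for CD117 and sorted as lineage-negative, Sca-1+, Kit+, CD48-, Flt3- and CD150+, and as YFP+ or YFP-. The sources used here do not say which YFP gate each array had, which part of the gene was removed, or what share of cells recombined.

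Bcl11a encodes a zinc finger transcription factor that binds DNA and recruits NuRD and other corepressor complexes. It is best known for silencing the fetal globin genes in adult erythroid cells, and it is needed for B cell development. HSCs are rare, mostly quiescent bone marrow cells that renew themselves and give rise to every blood lineage. The Mx1 promoter that drives Cre here responds to interferon and is active in many tissues besides blood.

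Expression was read as log2 summaries of Affymetrix Mouse Gene 2.0 ST probe sets, and 16636 genes were tested. The median standard error of a KO minus Het difference was 0.298, so the 95% interval of a typical gene reached 0.66 on either side of its estimate. Het replicate 3, KO replicate 3 and 2 WT arrays had high Xist and came from female mice. The other 5 arrays came from males. Absent transcripts gave a scale for dim signals: Y-linked genes read 2.22 to 3.32 on the female arrays, and Xist read 3.58 to 4.22 on the male arrays. Kit read 9.19 to 10.01 and Slamf1, which encodes CD150, 6.43 to 7.94 on the 6 Het and KO arrays, while Flt3 read 3.55 to 4.10 and Cd48 3.90 to 5.13. On the WT arrays Slamf1 read 4.64, 4.67 and 6.71. KO replicate 3 stood apart from the other KO arrays: replicates 1 and 2 correlated with each other at r = 0.932 across probe sets, and with replicate 3 at 0.889 and 0.892. Het replicate 3 correlated with KO replicates 1 and 2 at 0.933 and 0.935, higher than with either Het array (0.915 and 0.896). WT replicate 1 correlated with all other arrays at only 0.85 to 0.87, and the WT means below include it. Values without KO replicate 3 are given below where they matter. They set only male KO arrays against Het arrays of both sexes. Results without each of the other arrays, Het replicate 3 among them, are given at the end. The labels call the replicates biological, and nothing more is said of how animals were pooled or paired.

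No gene passed an adjusted p of 0.05 between KO and Het (limma, Benjamini-Hochberg over 16636 genes; 0.0% called), and the smallest adjusted p was 0.0881. At an unadjusted p under 0.05, 434 genes (2.61%) were higher in KO and 325 (1.95%) were lower. Together these are 759 genes, where 832 would be expected if no gene differed. With each array's interquartile range as a term in the model the split turned to 413 higher and 477 lower. The median difference over all genes was −0.02, 46.9% of genes were higher in KO, and the 5th and 95th percentiles of the differences were −0.55 and 0.67. Differences of at least 2-fold, a log2 size of 1, were estimated for 236 genes higher in KO and 133 lower. All KO arrays lay above all Het arrays for 735 genes (4.42%) and below them for 898 (5.4%). The genes named below are thus those at the head of a ranking, with their values, and none of the differences passed correction for the number of genes tested. In bulk RNA of this kind, fewer cells with a transcript and less transcript per cell cannot be told apart.

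**Figure D1:**
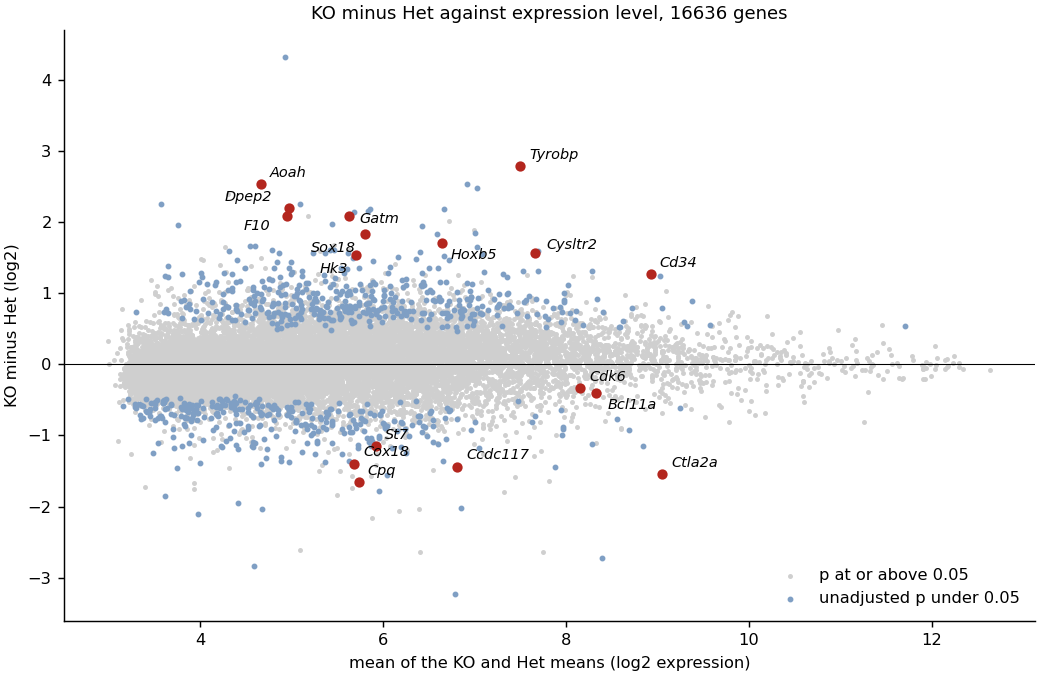
KO minus Het difference (vertical axis, log2) of each tested gene against the mean of its KO and Het means (horizontal axis, log2 expression), with genes at an unadjusted p under 0.05 in blue and 17 genes described in the text in red. Tyrobp stands out among brighter genes higher in KO and Ctla2a among those lower, while the highest point, at 4.32, is the small nucleolar RNA AF357425.

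Bcl11a itself read 8.34, 8.37 and 8.89 on the Het arrays and 7.82, 7.90 and 8.66 on the KO arrays, against 8.73, 8.81 and 8.38 on the WT arrays. KO replicates 1 and 2 were the lowest of all 9 arrays, and KO replicate 3 lay inside the Het and WT ranges. The difference was −0.41 (SE 0.288, 95% interval −1.05 to 0.23, limma adjusted p = 0.998; exact two-sided permutation p = 0.3 with 3 arrays against 3, where 0.1 is the smallest possible). It was −0.67 without KO replicate 3. A second Bcl11a probe set read 6.97, 6.70 and 7.44 in Het and 7.26, 6.94 and 7.39 in KO, a difference of 0.16. Neither probe set therefore separated the genotypes beyond their spread, and since the positions of the probes relative to the deleted part are not given, these readings do not check the deletion.

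The 2 smallest p-values belonged to genes of creatine synthesis and of blood coagulation. Gatm, the amidinotransferase that catalyses the first and rate-limiting step of creatine synthesis, read 4.62, 4.26 and 4.87 in Het cells and 6.87, 6.52 and 6.60 in KO cells. The groups were separated by more than the spread within either. KO exceeded Het by 2.08 (4.23-fold, SE 0.253, 95% interval 1.52 to 2.64, limma adjusted p = 0.0881). F10, the gene of coagulation factor X, read 3.94, 3.96 and 3.81 in Het and 6.37, 5.57 and 6.02 in KO. Its Het values all lay in the range of absent transcripts and its KO values above it, so only a lower bound of the change can be given. Against the top of that range KO was at least 3.40-fold higher, while the fit to the values as read gave 2.08 (SE 0.262, limma adjusted p = 0.0881).

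Among the 12 genes with the smallest p of those higher in KO, Tyrobp, Aoah, Hk3 and Klrb1c (ranks 3, 4, 5 and 10) are known from innate immune cells. They were grouped after their values were seen, and the lists of granulocyte and monocyte genes and of T and NK cell genes, given below, had more members lower than higher. Tyrobp, the ITAM-bearing adaptor of activating receptors on myeloid and NK cells, read 6.07, 5.56 and 6.69 in Het and 8.89, 7.99 and 9.78 in KO. Every KO array exceeded every Het array, and the difference was 2.78 (6.87-fold, SE 0.426, limma adjusted p = 0.198). Aoah, the acyloxyacyl hydrolase that detoxifies endotoxin, read 2.80, 3.16 and 4.23 in Het and 6.05, 5.80 and 5.94 in KO (2.53, SE 0.399, adjusted p = 0.206). Het replicates 1 and 2 lay within the scale of absent transcripts and replicate 3 at its upper edge, so that the size of the difference is uncertain. Hk3, the hexokinase of myeloid cells, read 5.06, 5.12 and 4.62 in Het and 6.20, 6.54 and 6.66 in KO (1.53, SE 0.259, adjusted p = 0.315). Klrb1c, the NK1.1 antigen, read 5.09, 4.24 and 4.02 in Het and 6.04, 7.07 and 6.14 in KO (1.97, SE 0.413, adjusted p = 0.746). It belongs to a family of closely related receptor genes, among which probes can share signal. For each of these genes all KO arrays lay above all Het arrays.

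Promoters of leading genes are shown because BCL11A is known to bind the letters TGACCA, and they differ in whether they hold that core. RefSeq promoter entries (GRCm38.p6) were found for 9 of the 12 genes with the smallest p among those higher in KO and for 7 of the 12 lower in KO. Tyrobp, Sox18 and Hoxb5 were without an entry. On either strand TGACCA (or TGGTCA) occurred in 3 of the 9 genes higher in KO (Klrb1c, Aoah and Hk3) and in 0 of the 7 lower, against 4458 of all 32851 promoters of 300 bases (13.6%). AGATAA, a motif of GATA factors searched on both strands beside it, occurred in 1 of the 9 and 2 of the 7, against 11.2% of all promoters. These are matches of letters and not measured binding sites. A gene was counted if any of its promoter entries matched, whereas the share over all promoters is per entry, so the shares are not strictly alike. St7 and Ctla2a, the lower genes with AGATAA, each had several entries. The 3 promoters that hold the core and those of the 2 leading genes, which do not, run 5′ to 3′ on the gene's own strand from 250 bases before the start of transcription to 20 after it. Capitals mark the core.
Aoah: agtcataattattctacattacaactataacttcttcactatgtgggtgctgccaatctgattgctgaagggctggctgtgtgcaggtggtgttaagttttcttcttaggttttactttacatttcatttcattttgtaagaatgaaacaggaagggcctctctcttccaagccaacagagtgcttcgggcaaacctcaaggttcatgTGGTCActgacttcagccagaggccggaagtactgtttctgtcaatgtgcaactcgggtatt
Hk3: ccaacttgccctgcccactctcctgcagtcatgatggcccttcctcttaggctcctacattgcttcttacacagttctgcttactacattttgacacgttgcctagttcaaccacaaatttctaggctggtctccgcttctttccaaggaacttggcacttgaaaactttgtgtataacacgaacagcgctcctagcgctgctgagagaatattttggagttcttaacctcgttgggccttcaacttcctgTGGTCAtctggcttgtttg
Klrb1c: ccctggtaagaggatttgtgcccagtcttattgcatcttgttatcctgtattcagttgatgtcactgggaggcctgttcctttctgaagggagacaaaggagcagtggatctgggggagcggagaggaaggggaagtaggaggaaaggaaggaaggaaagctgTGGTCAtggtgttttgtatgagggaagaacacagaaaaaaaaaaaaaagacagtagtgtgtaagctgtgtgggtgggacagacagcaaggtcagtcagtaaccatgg
Gatm: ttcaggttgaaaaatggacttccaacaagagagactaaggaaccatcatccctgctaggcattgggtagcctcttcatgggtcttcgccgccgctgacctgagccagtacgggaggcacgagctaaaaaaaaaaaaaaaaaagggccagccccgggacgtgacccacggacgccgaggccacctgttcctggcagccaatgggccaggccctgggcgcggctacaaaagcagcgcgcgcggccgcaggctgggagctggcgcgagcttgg
F10: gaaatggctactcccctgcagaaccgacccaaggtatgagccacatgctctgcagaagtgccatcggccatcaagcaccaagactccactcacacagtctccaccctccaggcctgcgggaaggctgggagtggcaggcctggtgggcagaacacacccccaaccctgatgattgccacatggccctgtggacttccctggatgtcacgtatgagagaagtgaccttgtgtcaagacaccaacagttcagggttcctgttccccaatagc
The Aoah stretch lies at chr13:20793863-20794132 on the plus strand, and its core begins at base 209 of the stretch. Hk3 lies at chr13:55021366-55021635 on the minus strand with the core at base 252, and Klrb1c at chr6:128788622-128788891 on the minus strand with the core at base 164. Gatm lies at chr2:122611258-122611527 on the minus strand and F10 at chr8:13037058-13037327 on the plus strand.

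Transcription factors and surface molecules made up much of the rest of the 12. Sox18, a SoxF factor of vascular development, read 4.56, 5.19 and 4.91 in Het and 6.91, 7.23 and 6.01 in KO (1.83, SE 0.330, limma adjusted p = 0.416). WT arrays read 4.08, 3.61 and 3.69, below every Het array. Hoxb5, a homeobox factor used as a marker of long-term HSCs, read 5.77, 5.25 and 6.35 in Het and 7.84, 7.52 and 7.12 in KO (1.70, SE 0.328, adjusted p = 0.481), but its second probe set differed by 0.15 with overlapping arrays. Ackr1, an atypical receptor that binds chemokines without signalling through G proteins, was higher by 1.66 (3.52, 3.50 and 4.27 in Het; 5.21, 5.90 and 5.16 in KO). C1qtnf6, a secreted protein of the C1q and TNF family, was higher by 1.57, Nemp1, a protein of the inner nuclear membrane, by 1.60, and Xpot, the export receptor of transfer RNA, by 1.04. Nemp1 had 2 further probe sets, which differed by 0.21 and 0.13, so that its difference rests on the brightest of the 3. Ranked by the gap between the groups rather than by p, Dpep2 and Faim joined the list. Dpep2, a dipeptidase that converts leukotriene D4 to E4, read 4.17, 3.30 and 4.15 in Het and 5.84, 6.30 and 6.08 in KO. Its Het readings lay in the range of absent transcripts, against the top of which KO was at least 3.61-fold higher, while a second probe set differed by 0.11. Faim, an inhibitor of Fas-induced apoptosis, differed by 2.14, but its WT arrays spread from 4.79 to 7.98 across both groups.

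**Figure D2:**
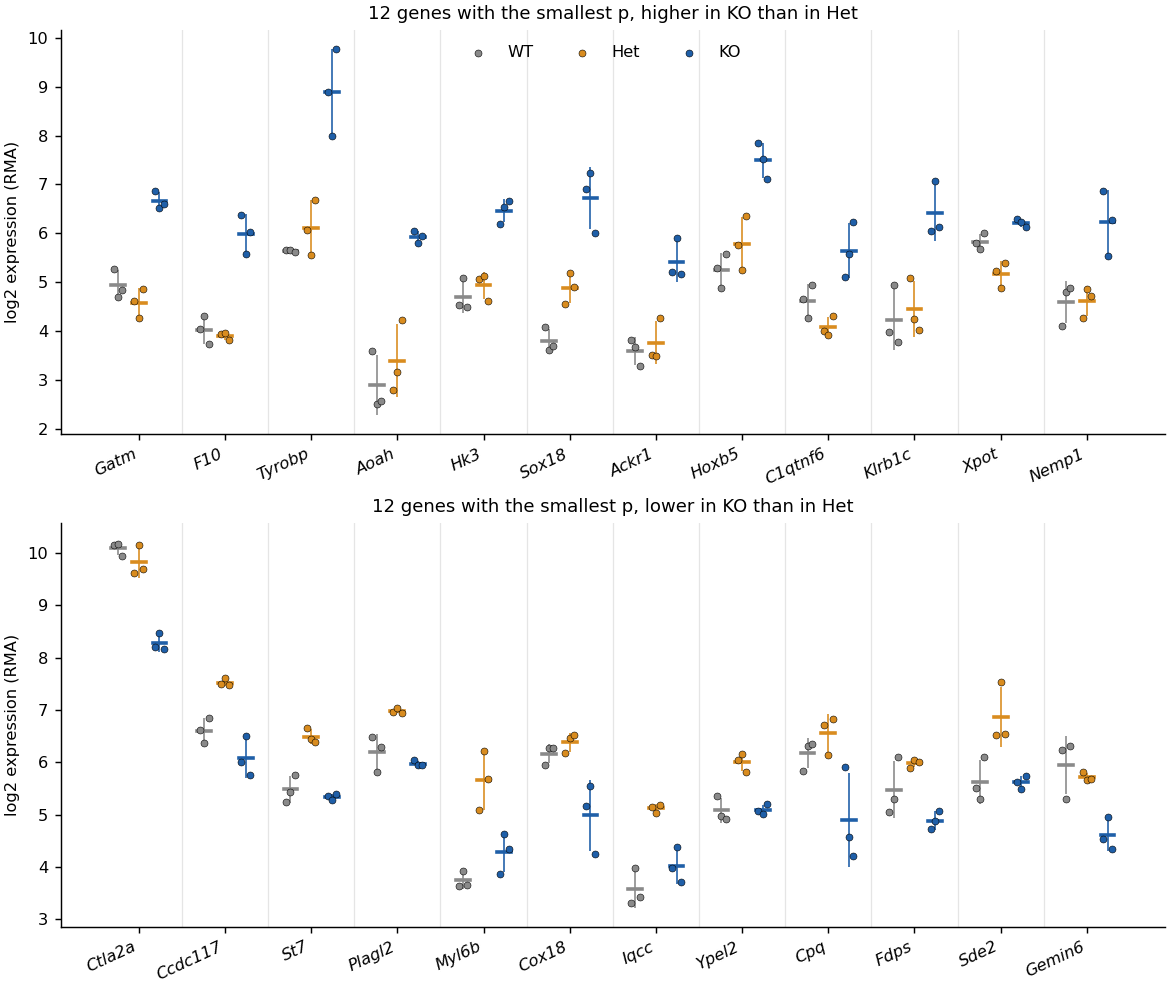
Log2 expression (vertical axis) of the 12 genes with the smallest p in each direction, on each WT, Het and KO array (points), with the mean (bar) and SD of 3 arrays (line). In the upper panel WT and Het points lie together below KO for most genes, and in the lower panel WT points lie beside KO and below Het for 7 of the 12.

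Ctla2a had the smallest p of the genes lower in KO and was the brightest of the 12 plotted for that direction. It encodes an inhibitor of cysteine proteases such as cathepsin L and read 9.62, 10.16 and 9.69 in Het and 8.20, 8.48 and 8.17 in KO. The groups did not overlap, and KO was lower by 2.91-fold (−1.54, SE 0.231, 95% interval −2.05 to −1.03, limma adjusted p = 0.198). WT arrays, at 10.16, 10.18 and 9.94, overlapped Het and not KO. Its near-identical neighbour Ctla2b read 8.63, 7.90 and 7.73 in Het and 6.89, 7.62 and 7.11 in KO (−0.88), and the probes of such similar genes can share signal.

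The next genes by p among those lower in KO were Ccdc117, St7 and Plagl2. Ccdc117, a coiled-coil protein, read 7.49, 7.61 and 7.48 in Het and 6.00, 6.51 and 5.76 in KO (−1.44, SE 0.251, limma adjusted p = 0.357). St7 read 6.65, 6.45 and 6.38 in Het and 5.36, 5.28 and 5.39 in KO (−1.15, SE 0.218, adjusted p = 0.456). Plagl2, a zinc finger transcription factor, read 6.96, 7.03 and 6.95 in Het and 6.04, 5.95 and 5.94 in KO (−1.0, SE 0.228, adjusted p = 0.965). In all 3 genes the groups were apart by more than their ranges, and in all 3 the WT mean was nearer to the KO mean than to the Het mean. Cox18, which inserts a cytochrome oxidase subunit into the inner mitochondrial membrane, differed by −1.40, Cpq, a secreted carboxypeptidase, by −1.66, and Myl6b, a myosin light chain, by −1.38. Fdps, farnesyl diphosphate synthase of the mevalonate pathway, differed by −1.10, Gemin6, of the SMN complex that assembles splicing particles, by −1.11, Sde2 by −1.25, Iqcc by −1.10 and Ypel2 by −0.91. Gemin6 had a second probe set at −0.58. Ywhag, the 14-3-3 gamma protein, was named for its gap and differed by −1.15 on its brightest probe set but by 0.53 and 0.24 on the other two.

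The 3 genotypes show how the 24 leading genes lie along the series of allele loss. Of the 12 genes higher in KO, the WT arrays overlapped the Het arrays and not the KO arrays in 10, and overlapped neither in 2. Of the 12 lower in KO, the WT arrays overlapped KO and not Het in 7, Het and not KO in 3, and both in 2. Because these genes were picked for their KO and Het values, the counts describe them and are not a test.

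The step from Het to KO was set against the step from WT to Het gene by gene, as the signed KO minus Het difference less the signed Het minus WT difference. A positive value can come from a fall at the first step as well as from a rise at the second. The first step also adds Mx1-Cre, which cannot be told apart from loss of the first allele. No gene passed an adjusted p of 0.05 (limma; 0.0% called), the smallest being 0.733. At an unadjusted p under 0.05, 249 genes (1.5%) had the larger value at the second step and 333 (2.0%) at the first. Since the Het arrays enter both steps with opposite sign, a high or low Het mean moves this value by itself. Gatm led the first direction, with a second step larger by 2.44 (SE 0.439, adjusted p = 0.733). Its WT arrays read 5.28, 4.70 and 4.85, near Het. F10 also had WT readings near Het, at 4.04, 4.31 and 3.73, which lie near the level of absent transcripts in both genotypes. Xpot, with a second step larger by 1.70, had Het as the lowest genotype: its WT arrays read 5.80, 5.69 and 6.00, its Het arrays 5.23, 4.89 and 5.40 and its KO arrays 6.29, 6.23 and 6.12. Acadm, the medium-chain acyl-CoA dehydrogenase of fatty acid oxidation, had this form too. It read 8.49, 9.27 and 8.77 in WT, 7.51, 7.46 and 7.78 in Het and 8.08, 8.35 and 8.54 in KO, so that Het was the lowest genotype and KO exceeded it by 0.74. Slc16a9, of the monocarboxylate transporter family, read 5.70, 5.95 and 6.08, then 3.44, 4.12 and 4.36, then 4.47, 5.30 and 4.63, with Het lowest again, though a second probe set differed by −0.01 between Het and KO. Pdzd11 separated WT from both other genotypes, at 6.67, 6.73 and 6.42 in WT, 5.13, 5.07 and 5.42 in Het, and 5.32, 5.67 and 5.44 in KO.

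In the other direction Het was the highest genotype. Myl6b read 3.63, 3.93 and 3.66 in WT, 5.08, 6.21 and 5.69 in Het and 3.87, 4.63 and 4.35 in KO (second step less first step −3.30, limma adjusted p = 0.733). Iqcc read 3.31, 3.98 and 3.42, then 5.15, 5.03 and 5.18, then 3.97, 4.39 and 3.71 (−2.65). The WT readings of both genes lay in the range of absent transcripts, so that the size of their first step is uncertain. St7 (−2.16), Ccdc117 (−2.36), Ypel2 (−1.84) and Plagl2 (−1.79) followed. In all 6 genes every Het array exceeded every WT and every KO array. Cdk6, a kinase that promotes exit from quiescence, was highest in WT and lowest in KO, going from 9.04, 8.69 and 9.30 in WT to 8.33, 8.32 and 8.32 in Het and 7.97, 7.91 and 8.07 in KO. Its second step was −0.34 (SE 0.221, adjusted p = 0.998), with no overlap between the groups.

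Lists of related genes were described by how many tested members were higher or lower in KO, beside 46.9% higher and a median of −0.02 over all genes. No member of any list passed the adjusted test. The HSC identity list, of genes used as markers or regulators of stem cells, had 22 of 35 tested members higher in KO and 13 lower, with a median of 0.11. All KO arrays lay above all Het arrays for 6 of them and below for 0, where 4.42% and 5.4% of all genes did. Cd34, a sialomucin whose level separates HSC subsets, read 8.63, 7.64 and 8.60 in Het and 10.09, 9.50 and 9.08 in KO (1.27, SE 0.336, limma adjusted p = 0.998). Cd34 also stands in the list of multipotent progenitor genes, so that its difference does not speak for stem cell identity alone. Mllt3, a chromatin reader that maintains HSCs, read 9.08, 8.83 and 9.25 in Het and 9.79, 9.63 and 9.34 in KO (0.53). Mecom, a self-renewal factor, read 7.42, 7.83 and 7.93 in Het and 8.41, 8.51 and 8.20 in KO (0.65), and Fgd5, a marker of HSCs, was higher by 0.68. KO exceeded Het on every array for these 4 genes, and for Mllt3 and Mecom every Het array exceeded every WT array as well. A second Mecom probe set differed by 0.47 with overlapping arrays, and there WT replicate 3, at 6.16, exceeded every Het array. Slamf1 differed by −0.12 (95% interval −1.41 to 1.16) and Procr, the endothelial protein C receptor, by −0.13 (−1.37 to 1.11). Without KO replicate 3 the list's median was 0.33.

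Genes known to increase in the HSCs of old mice lay on both sides of 0. Of 37 tested, 14 were higher in KO and 23 lower, with a median of −0.18, and 0.10 without KO replicate 3. Aldh1a1, a retinaldehyde dehydrogenase, was lower on every KO array (7.51, 7.42 and 7.34 in Het; 6.09, 6.99 and 6.41 in KO; −0.93). Jam2, an adhesion molecule of cell junctions, was higher on every KO array (5.45, 5.70 and 6.00; 6.65, 6.49 and 6.26; 0.75), and Osmr, the oncostatin M receptor, read 3.51, 3.28 and 2.70 in Het and 5.28, 4.94 and 3.08 in KO. KO replicate 3 and all Het arrays of Osmr were in the range of absent transcripts. Vwf, von Willebrand factor, differed by 0.83 with overlapping arrays.

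Multipotent progenitor genes had a lower median than all genes, while that of lymphoid priming genes changed sign with the filter on level. Of 16 multipotent progenitor genes, 4 were higher and 12 lower (median −0.30), with Cd34, given above, the furthest from 0. Satb1, a chromatin organiser of lymphoid cells, was lower on every KO array (3.74, 3.95 and 3.65 in Het; 3.24, 3.30 and 3.11 in KO), at readings in the range of absent transcripts. Cd244a, a receptor of the SLAM family, was higher on every KO array (3.46, 2.98 and 3.66 in Het; 4.16, 4.78 and 3.89 in KO), with all Het readings in that range. Flt3, excluded by the gate, differed by −0.28. Among 21 lymphoid priming genes 9 were higher and 12 lower (median −0.16, mean −0.02). The median was −0.057 with no filter and 0.06 over genes at or above the median level. Ikzf1, the lymphoid factor Ikaros, was higher by 0.72 (6.55, 7.40 and 7.36 in Het; 7.55, 7.98 and 7.93 in KO), and Lat2, an adaptor of immune receptors, by 0.63 with no overlap.

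Receptor adaptors and leukotriene genes held some of the largest single differences named here. Among 20 ITAM adaptors and partner receptors, 8 were higher and 12 lower (median −0.07, and 0.063 with the filter raised to the median level). All KO arrays lay above all Het arrays for 4 of them and below for 0, where 4.42% and 5.4% of all genes did. The 4 were Tyrobp, Klrb1c, Fcer1g and Hcst. Fcer1g, the Fc receptor gamma chain, read 7.43, 7.67 and 8.11 in Het and 8.83, 8.22 and 8.40 in KO (0.75, SE 0.267), and its Het arrays all exceeded WT (6.79, 6.84 and 6.41). Hcst, the adaptor DAP10, differed by 0.96. Trem2, a receptor that signals through Tyrobp, was dim, at 4.0 to 4.85 on the 6 arrays. In the leukotriene pathway 8 of 14 genes were higher and 6 lower (median 0.18, against −0.02 over all genes). Cysltr2, a receptor of cysteinyl leukotrienes, read 6.81, 6.39 and 7.43 in Het and 9.04, 8.16 and 8.14 in KO (1.57, SE 0.365, limma adjusted p = 0.965). WT read 4.86, 5.78 and 5.27, so that the Het minus WT step, at 1.57, was as large as the KO minus Het step. Alox5, the 5-lipoxygenase that starts leukotriene synthesis, read 5.87, 6.77 and 5.95 in Het and 7.19, 7.04 and 9.30 in KO (1.65). KO replicate 3 was the highest by far, and without it the difference was 0.92. The median of the leukotriene list was 0.37 without KO replicate 3 and −0.01 without KO replicate 2.

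**Figure D3:**
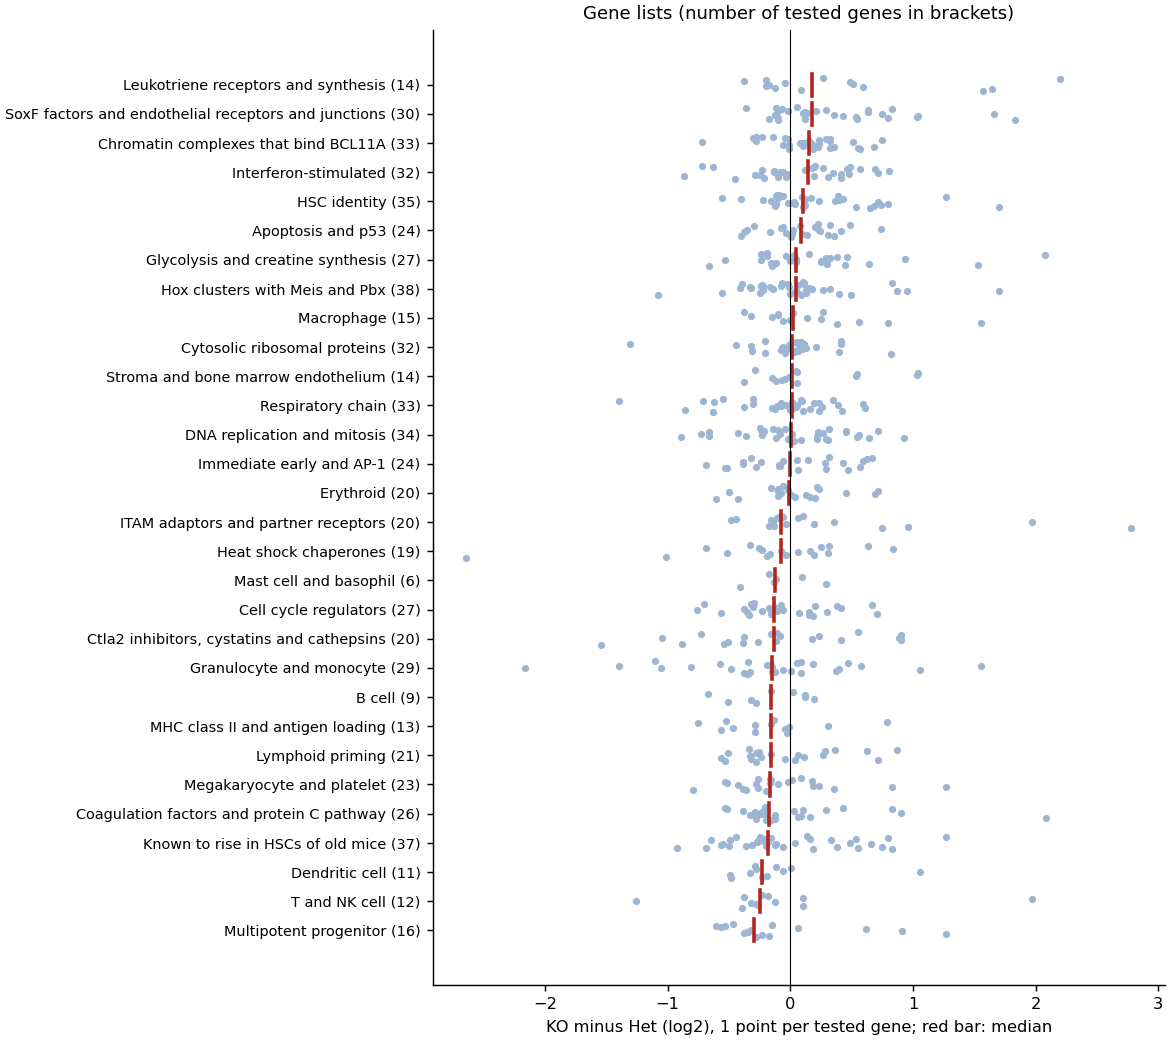
KO minus Het difference (horizontal axis, log2) of each tested member of 30 gene lists (points), with the median of each list (red bar) and the number of tested members in brackets. List medians lie between −0.30 and 0.18, while single members such as Tyrobp at 2.78 and Hspa1a at −2.64 lie far from them.

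Vascular and clotting genes were set out for Sox18 and F10. Of 30 SoxF factors and endothelial receptors and junction genes, 21 were higher in KO and 9 lower (median 0.18, and 0.35 without KO replicate 3). All KO arrays lay above all Het arrays for 4 of them and below for 0, where 4.42% and 5.4% of all genes did. Besides Sox18, Ackr1 and Jam2 the 4 included Pecam1, the adhesion molecule CD31, at 5.80, 6.74 and 6.74 in Het and 7.30, 7.63 and 7.45 in KO (1.03, SE 0.344). Sox17 differed by −0.10, and Sox7 was removed by the filter on level. Stromal and marrow endothelial markers were split 7 to 7 (median 0.02). Emcn, Kdr and Cdh5 were among those higher, all with overlapping arrays. Emcn, the sialoprotein endomucin, read 5.38, 6.23 and 7.41 in Het and 8.11, 6.92 and 7.12 in KO (1.04), with overlapping arrays. Kdr, a VEGF receptor, differed by 0.54, and Cdh5, the defining cadherin of endothelium, by 0.54 at dim readings of 2.62 to 4.38. Pecam1, Emcn, Kdr and Cdh5 also stand in the list of 14 stromal and marrow endothelial markers, of which 7 were higher and 7 lower, with list means of 4.31 to 4.41 in Het and 4.39 to 4.66 in KO. The part of these markers in the SoxF result was not tested. Of 26 coagulation and protein C genes 10 were higher and 16 lower (median −0.18, and 0.067 with the filter raised to the median level). F10 was the only member above Het on every KO array and 1 member lay below it, where 4.42% and 5.4% of all genes did. Of the proteases and cofactors that act beside F10, F7 differed by −0.12, F5 by −0.15 and Proc by −0.28. In the group of Ctla2 inhibitors, cystatins and cathepsins, 7 of 20 were higher and 13 lower (median −0.14). Ctse, cathepsin E, was lower on every KO array (6.57, 7.70 and 7.35; 6.47, 6.49 and 5.52; −1.05). Its WT arrays, at 6.19, 5.69 and 6.55, overlapped KO and lay below every Het array. Ctsf and Ctsc, lysosomal cathepsins, were higher on every KO array by 0.89 and 0.90.

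Homeobox genes differed one by one. Of 38 genes of the Hox clusters with Meis and Pbx, 20 were higher and 18 lower (median 0.04). Hoxb4, a factor that expands HSCs when overexpressed, read 6.20, 5.80 and 5.59 in Het and 7.28, 6.40 and 6.53 in KO (0.87). Its WT arrays, at 6.75, 6.89 and 6.22, overlapped KO and lay above every Het array. Hoxb3, beside Hoxb4 in the cluster, differed by 0.95 with overlapping arrays. Hoxa4 was lower on every KO array (4.96, 4.30 and 5.21; 3.60, 4.20 and 3.44), with all KO readings in the range of absent transcripts. Members of chromatin complexes that bind BCL11A were higher in 22 of 33 cases and lower in 11 (median 0.15), with small single differences: Mta3, a NuRD subunit, at 0.55, and Smarcc2, a SWI/SNF subunit, at 0.51 had no overlap, and Smarcd1 differed by −0.72. A second Smarcd1 probe set differed by 0.06. The filter on level removed the 4 embryonic globin genes.

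Cell cycle and stress genes had members on both sides of 0. Cell cycle regulators were higher in 10 of 27 cases and lower in 17 (median −0.13), with Cdkn2c, an inhibitor of Cdk4 and Cdk6, lower on every KO array (5.28, 6.05 and 5.46; 4.94, 4.84 and 4.73; −0.76). DNA replication and mitosis genes were split 18 to 16 (median 0.01, and −0.15 without KO replicate 3). Interferon-stimulated genes, of interest since interferon drives the Cre used here, were higher in 17 of 32 cases (median 0.15), with Ifih1, a sensor of double-stranded RNA, at 0.81 and Dhx58 at −0.63. Immediate early genes divided 12 to 12 (median −0.00, and 0.37 without KO replicate 3). Heat shock chaperones were higher in 8 of 19 cases (median −0.08). Hspa1a, the inducible Hsp70, read 9.32, 9.12 and 4.73 in Het and 2.95, 7.74 and 4.56 in KO, a spread within genotypes wider than the difference of −2.64 (SE 1.32). Apoptosis and p53 genes were higher in 16 of 24 cases and lower in 8 (median 0.09), and their largest difference, 0.74 for Casp8, came with overlapping arrays.

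Metabolic genes were likewise mixed. For glycolysis and creatine synthesis 16 of 27 genes were higher and 10 lower (median 0.05, and 0.26 without KO replicate 3). Gatm and Hk3 stood above Het on every KO array, while Hk2, another hexokinase, stood below it (5.59, 5.95 and 5.58; 4.94, 5.43 and 4.75; −0.67). Gamt, which completes creatine synthesis, differed by 0.15 (95% interval −0.33 to 0.63). Respiratory chain genes were higher in 17 of 33 cases (median 0.01). All KO arrays lay below all Het arrays for 4 of them and above for 0, where 5.4% and 4.42% of all genes did. The 4 included Cox18 and Cox7a2 (−0.62), and 1 of the others had a second probe set that differed by 0.43 with overlapping arrays. Ribosomal protein genes were higher in 18 of 32 cases (median 0.02).

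Markers of other blood cells give the setting for Tyrobp, Aoah, Hk3 and Klrb1c. Of 29 granulocyte and monocyte genes 11 were higher in KO and 18 lower (median −0.15), with list means of 4.93 to 5.28 in Het and 4.87 to 5.0 in KO. The calprotectin subunit S100a8 read 5.06, 8.74 and 7.07 in Het and 5.34, 6.74 and 2.31 in KO. Mmp8, a neutrophil collagenase, was lower on every KO array (3.78, 4.91 and 3.56; 2.86, 2.80 and 3.28; −1.10). All its readings but that of Het replicate 2 lay in the range of absent transcripts. Of 15 macrophage genes 8 were higher and 6 lower (median 0.02), with list means of 3.98 to 4.59 in Het and 4.02 to 4.62 in KO. Cd68, a lysosomal protein of phagocytes, was higher on every KO array (6.16, 5.45 and 7.30; 8.03, 8.07 and 7.47; 1.55), whereas Adgre1, a defining surface antigen of macrophages, read 3.26 to 4.22 on the 6 arrays, at the level of absent transcripts. Of 12 T and NK cell genes 3 were higher and 9 lower (median −0.25), with list means of 4.03 to 4.41 in Het and 4.06 to 4.32 in KO. Nkg7, a granule protein of NK and cytotoxic T cells, was lower on every KO array (5.72, 6.11 and 6.69; 4.81, 5.08 and 4.85; −1.26), and Ncr1, which defines NK cells, read 3.30 to 4.15, in the range of absent transcripts.

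The remaining marker lists gave small medians. B cell genes were higher in 4 of 9 cases (median −0.15), dendritic cell genes in 2 of 11 (−0.23), MHC class II and antigen loading genes in 2 of 13 (−0.15), mast cell and basophil genes in 2 of 6 (−0.13), megakaryocyte and platelet genes in 8 of 23 (−0.16) and erythroid genes in 10 of 20 (−0.01). Rfx5, a regulator of MHC class II, was the exception in its list, higher on every KO array by 0.79. Ppbp, a platelet chemokine, differed by 1.27 with KO arrays at 6.79, 4.14 and 6.85, of which the second lay below every Het array.

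The sex of the mice and KO replicate 3 coincide, since that array is the only female KO array. List means between the 2 male KO and 2 male Het arrays, and between the female pair, are therefore set side by side without a test. For the HSC identity list the arrays averaged 7.09, 7.12 and 7.16 in Het and 7.53, 7.50 and 6.98 in KO, so that KO replicates 1 and 2 lay above Het and replicate 3 below. The list of genes known to increase with age averaged 5.82, 5.74 and 6.01 in Het and 6.06, 5.97 and 5.47 in KO, with replicate 3 again lowest. The SoxF and endothelial list (4.99, 5.14 and 5.24; 5.57, 5.55 and 5.37) and the leukotriene list (5.57, 5.57 and 5.87; 6.06, 6.24 and 6.06) had every KO array above every Het array. Both of these lists had members lower in KO, 9 of 30 and 6 of 14. The leukotriene mean holds the large differences of Dpep2 (2.20), Alox5 (1.65) and Cysltr2 (1.57), and does not describe the list as a whole. With 1 female array in each of the groups, sex and single arrays cannot be told apart.

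**Figure D4:**
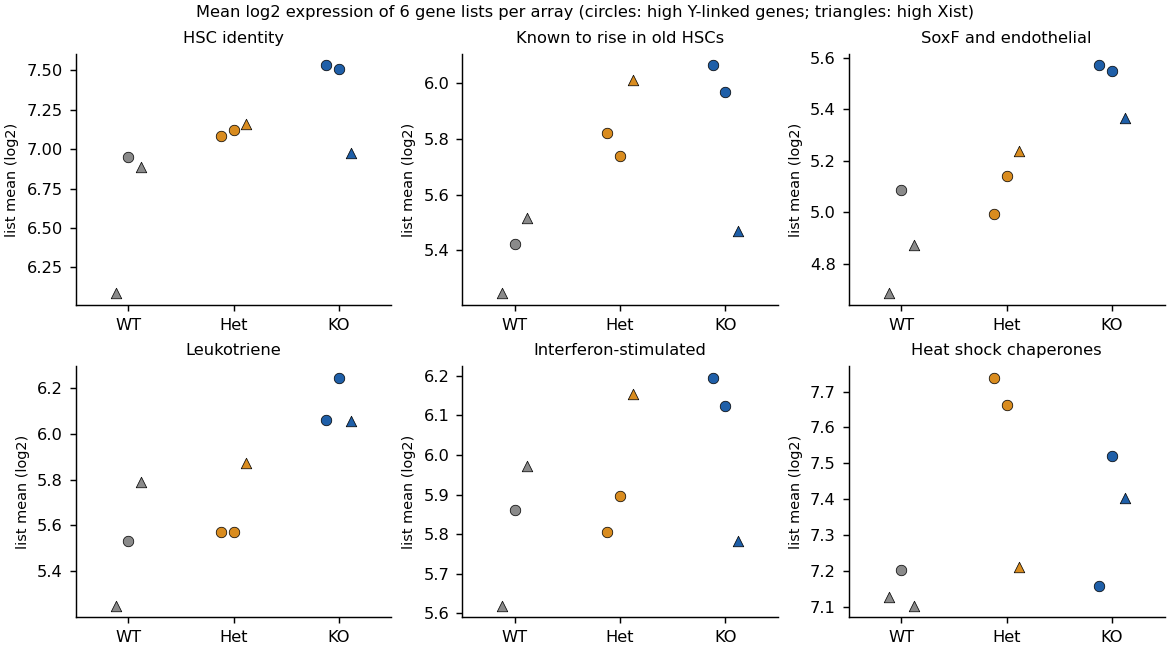
Mean log2 expression (vertical axes) of the tested members of 6 gene lists on each array, by genotype, with female arrays as triangles and male arrays as circles. KO replicate 3, the KO triangle, lies below both other KO arrays in the HSC identity, age and interferon panels. It is the lowest KO array in the SoxF panel too, and barely so in the leukotriene panel, but in these panels all 3 KO arrays lie above all Het arrays.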

How the data were processed

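The authors deposited log2 expression values of probe sets. The submitters' processing notes name RMA, which subtracts background, puts arrays on a common distribution and summarises probes, and so compresses differences of dim transcripts. The sources used here give no version, settings or genome build, and coordinates are printed for RefSeq promoters alone. RNA was amplified and biotin-labelled for small inputs, per the labels' protocols.

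The platform annotation gave 1 gene symbol to 23521 of 41345 probe sets, several to 1814 and none to 16010. Gene identifiers served to update symbols (23328 matched, 193 did not). Where a gene had several probe sets (1082 of 22180 genes), the one brightest on average over the 9 arrays stood for it. A filter at the 25th percentile of mean level (log2 3.31) left 16636 genes. limma 3.58.1 in R 4.3.3 (lmFit, eBayes) fitted a mean per genotype over all 9 arrays, with 6 residual and 4.26 prior degrees of freedom. P-values are two-sided and Benjamini-Hochberg adjusted over all genes tested. Where every array of a group read within the range of absent transcripts, a fold is given for F10, Dpep2 and AF357425 as a lower bound against the top of that range (log2 4.22), a choice made after seeing the data. The number of arrays, not a depth, limits precision. The fit was tested on simulated data.

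Named genes were Bcl11a, the 12 with the smallest p and the 8 with the widest gap in each direction (higher group's mean at least 5), up to 4 per list, 6 in each direction of the difference between steps, and a set of genes always named. Predicted genes, small RNAs and chemosensory receptors were left out. AF357425 was named after its values were seen. The 32 gene lists, the always-named genes and the comparison were chosen with earlier results of these data known. Lists include a check of sex-linked genes. Alternatives were other filters, normalizations, terms and weights, probe set rules, and leaving out each array.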

Additional observations from a re-analysis of the deposited data

Results flagged for a closer look

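Some gene lists had opposite differences in the 2 sexes: both male KO arrays lay on one side of both male Het arrays, and the female KO array lay on the other side of the female Het array. With 1 female array per genotype the difference between the sexes was not tested. Values are KO minus Het differences of the list mean on the log2 scale. HSC identity genes differed by 0.41 between males and −0.19 between females. Genes known to increase in old HSCs differed by 0.24 and −0.54, interferon-stimulated genes by 0.31 and −0.37, and members of complexes that bind BCL11A by 0.22 and −0.038. Ribosomal protein genes differed by 0.12 between males and −0.24 between females. Heat shock chaperones went the other way, at −0.36 between males and 0.19 between females, as did T and NK cell genes, at −0.30 and 0.28. In each of these lists the female difference rests on KO replicate 3 and Het replicate 3.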

How the results depend on the processing

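No gene was called for KO against Het under any of the alternatives run, and none for the difference between the steps. The smallest adjusted p for KO against Het ranged from 0.0515 (array weights) to 0.513 (without Het replicate 2). The 759 genes at an unadjusted p under 0.05 became 487 with the filter raised to the median level, where fewer were tested, 1334 with array weights, and 554 to 1202 with 1 array left out, the highest without Het replicate 3. The share of these genes that were higher in KO was 57.2%, against 46.4% with each array's interquartile range as a term (413 higher, 477 lower), 51.1% with no filter, and 67.1% without KO replicate 3. The 1633 genes whose arrays did not overlap became 2789 to 4381 with an array left out, since 2 arrays separate from 3 more often. The replicate numbers were not shown to pair the animals: same-numbered KO and Het arrays deviated from their group means with correlations of −0.04, −0.02 and −0.14. With a replicate block 0 genes were called and 743 had an unadjusted p under 0.05.

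Medians of some lists moved. Above the median level they were 0.06 for lymphoid priming, 0.063 for ITAM adaptors, 0.38 for leukotriene genes, 0.067 for coagulation genes, 0.49 for SoxF and endothelial genes and −0.41 for B cell genes. With no filter lymphoid priming was at −0.057. Coagulation genes were at −0.12 after further quantile normalization and −0.071 with each array's interquartile range in the model. With 1 array left out, medians ranged from −0.19 to −0.055 for lymphoid priming, −0.0083 to 0.37 for leukotriene, −0.23 to −0.069 for coagulation, 0.16 to 0.43 for SoxF and endothelial, 0.047 to 0.26 for glycolysis, and −0.30 to −0.11 for dendritic cell genes. Of 94 genes checked, 91 kept their direction under every setting run. The exceptions were Slamf1 (0.060 with array weights, −0.61 to 0.15 with an array left out), Procr (0.23, and −0.66 to 0.51) and Sox17 (−0.29 to 0.07 with an array left out). The cause was not tested. Many of the 94 genes were picked for their KO and Het values on these same arrays. The count of 91 therefore describes them and is not a test. No setting took a gene's direction from a dimmer probe set alone, and on those Ywhag, Smarcd1 and Bcl11a, among others, went the other way.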

Other observations

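Small RNAs lay outside the rule for named genes, and 1 of them, chosen here after its values were seen, had a difference larger than any gene named by the rule. AF357425, a small nucleolar RNA of the imprinted Dlk1-Dio3 region, read 2.96, 3.05 and 2.29 in Het, 6.90, 5.77 and 8.58 in KO and 3.31, 4.24 and 4.15 in WT. The Het readings lay in the range of absent transcripts, with WT at or near it. Against the top of that range KO was at least 7.28-fold higher, and the fit to the values as read gave 4.32 (SE 0.594, limma adjusted p = 0.13). Other transcripts of the region gave smaller values: Meg3, a long noncoding RNA, differed by 0.08, Rian, which hosts small nucleolar RNAs, by 0.84, Dlk1 by 0.33, and AF357355 by 2.39 with arrays that overlapped. Dio3 differed by −0.18. AF357341 and AF357426, removed by the filter on level, differed by 0.04 and −0.24. Fcor, also chosen after its values were seen, had the largest difference among the genes lower in KO. It read 6.86, 8.07 and 10.25 in Het, 6.54, 5.30 and 3.66 in KO and 7.66, 5.56 and 5.42 in WT (−3.23, SE 0.946, limma adjusted p = 0.998).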
